A study of Arabidopsis thaliana with 20 samples.

Results

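The 53 probe sets described here were high in young leaves of Arabidopsis thaliana, low in mature wild-type leaves and high in mature leaves of a mutant that lacked MYB3R1, MYB3R3 and MYB3R5. They were chosen from leaf signals alone, out of 22746 probe sets that were not array controls. Signals under 33 were set to 33, log2 was taken and each leaf group was averaged. In wild type a member had to be lower in mature (15 d) than in young (5 d) leaves by at least 2 log2 units, and it had to be at least 1.5 log2 units higher in the mutant than in wild type at 15 d, with all 3 mutant arrays above all 3 wild-type arrays. These values met the rule in 65 probe sets, of which 5 named mitotic genes (AUR1, AUR2, 3xHMG-box1, BUBR1 and KINESIN-12B) and 7 other kinesin genes were left out. Of the 53 that remained, 27 paired with 1 gene and 26 had no gene name in the table used here, so a kinesin or another known mitotic gene among the unnamed probe sets could not be recognised. AT5G55520, whose annotation as kinesin-like is uncertain, was kept among the named members. Of the 27 named members, 5 lie on chromosome 1, 3 on chromosome 2, 2 on chromosome 3, 7 on chromosome 4 and 10 on chromosome 5, as their locus names give it.

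MYB3R proteins are transcription factors of the MYB family that bind MSA elements in the promoters of genes used in the G2 and M phases of the cell cycle. In Arabidopsis, MYB3R4 is known mainly as an activator of these genes, MYB3R3 and MYB3R5 as repressors, and MYB3R1 has been placed in both roles. A leaf grows first by cell division and later by expansion, and transcripts of the division machinery are lost as its cells leave the cycle.

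RNA was measured on 20 Affymetrix arrays. The first leaf pair of wild type (Columbia) and of the triple mutant myb3r1 myb3r3 myb3r5 was sampled at 5 d, with 2 arrays per genotype, and at 15 d, with 3 arrays per genotype. Whole seedlings of 9 d were sampled with 1 array each for wild type, the single mutants myb3r1, myb3r3, myb3r4 and myb3r5, the double mutants myb3r1 myb3r4 and myb3r3 myb3r5, the triple mutants myb3r1 myb3r3 myb3r5 and myb3r3 myb3r4 myb3r5, and the quadruple mutant myb3r1 myb3r3 myb3r4 myb3r5. All plants grew on sucrose-containing Murashige and Skoog agar at 22 °C in constant light and received no treatment. The allele carried at each locus and the number of plants per sample are not given in the sources used here, and nothing says whether replicates were separate cultures, so p-values cover the spread from array to array, which may be technical.

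Each value below is a linear signal per probe set and array, which the authors had scaled to a trimmed mean of 500.04 to 500.06 on every array. Of the photosynthesis markers 2 of 7 had a named probe set, RCA and LHCB4.1, and their summed signal was 18903 to 31520 at 5 d, 19024 to 43706 in wild type at 15 d and 5770 to 35054 in the mutant at 15 d. The mutant arrays at 15 d differed in these markers. RCA, the activase of the carbon-fixing enzyme Rubisco, gave 18634 on mutant replicate 1, within the range of wild type at 22383, 14049.7 and 8776. On mutant replicates 2 and 3 it gave 2464 and 3187, below every other leaf array. LHCB4.1 was likewise lowest on those replicates, at 3305 and 3787, and gave 16419 on replicate 1. Of the stomatal lineage markers 3 of 7 were named and summed to 637 to 860.3 at 5 d, 207 to 339 in wild type at 15 d and 162 to 385 in the mutant at 15 d. These sums join markers that moved in opposite directions. In wild type, SPCH fell from 720 and 432 at 5 d to 10.2, 3.40 and 7.58 at 15 d. MUTE fell from 77.6 and 107 to 2.22, 0.733 and 3.77, and FMA rose from 62.3 and 98.0 to 326, 203 and 213. CLV3, the 1 shoot meristem marker of 6 with a named probe set, lay under 33 on all arrays, and the 2 named root markers of 3, EXPA7 and EXPA18, summed to 14.3 to 92.0 in leaves and 241 to 389 in seedlings. None of the flower markers had a named probe set.

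None of the 27 named members is on the lists of G2/M, cytokinesis, chromosome segregation or S phase genes drawn up here, so those lists could not check the members' link to cell division. By their names, 3 members have a known tie to it: UBC20, TUB7 and AT5G15510. The other division genes at 15 d did not all share the pattern. The 4 named G2/M genes (AUR1, AUR2, AUR3 and AT1G63100) summed to 1173 to 1401 in the mutant and 73.2 to 227 in wild type, and AUR1 and AUR2, which met the rule and were left out by name, carried the mutant sums. AUR3 gave 15.4, 18.9 and 23.1 in the mutant against 47.2, 8.68 and 25.1 in wild type, and AT1G63100 gave 44.7, 21.2 and 32.0 against 34.8, 23.6 and 3.01, so both lay near or under the floor and their groups overlapped. The 3 named S phase genes (PRL, HTB1 and ICU2) summed to 392 to 635 in the mutant and 506 to 667 in wild type. These sums overlapped and were carried by HTB1, at 263, 350 and 476 in the mutant against 311, 359 and 474. PRL gave 82.9, 96.3 and 114 in the mutant against 138, 122 and 129 in wild type. ICU2 gave 45.2, 52.96 and 45.5 against 58, 60.2 and 63.9. In PRL and ICU2 all 3 mutant arrays thus lay below all 3 wild-type arrays, the opposite direction to the members. The 12 named segregation genes summed to 801 to 909 in the mutant and 366 to 520 in wild type. BUB3.1 gave 185, 249 and 217 against 157, 107 and 115. BUB3.2 gave 80.4, 86.8 and 62.6 against 10.9, 30.6 and 3.89. The 4 cytokinesis probe sets summed to 863 to 1067 against 675 to 933. BUBR1 and KINESIN-12B on these lists met the rule, and beyond BUB3.1 and BUB3.2 the other groups overlapped.

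In wild-type leaves the members' signals were high at 5 d and near or under the floor of 33 at 15 d. The median member signal was 902 and 802 on the 5 d wild-type arrays, 972 and 935 on the 5 d mutant arrays, 43.3, 22.3 and 29.4 on the 15 d wild-type arrays, and 357, 416 and 424 on the 15 d mutant arrays. The 15 d mutant thus lay between young and mature wild type. These values chose the members and are a description with no test. Wild type at 15 d was at the floor on all 3 arrays for 19 members, on 2 for 10, on 1 for 7 and on none for 17. Signals lay above the floor for all 53 members on each of the 3 mutant arrays at 15 d, each 5 d array and each seedling array. Fewer dividing cells and less RNA per cell cannot be told apart in whole leaves.

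The median log2 difference of mutant over wild type at 15 d was 2.84 (range 1.51 to 5.79), and that of wild type at 5 d over 15 d was 4.09 (2.19 to 6.84). Expressed as a share of the young wild-type leaf, the mature mutant leaf held a median of 57.1% (6.63% to 151%). It reached at least 25% for 43 members, at least 50% for 29, at least 75% for 18 and at least 100% for 10. Signals in the mutant were still lower at 15 d than at 5 d for 48 members, by a median log2 difference of 1.02, and for 43 both 5 d mutant arrays lay above all 3 of its 15 d arrays. Mutant replicate 1 was the lowest of its group for 34 members and wild-type replicate 1 the highest of its group for 32. The median difference between same-numbered replicates was 2.64 for replicate 1, 2.93 for replicate 2 and 3.01 for replicate 3. The part of the unequal photosynthesis signals of the mutant arrays in this was not tested. Without mutant replicate 1 at 15 d, 83 probe sets met the rule, 51 of the 53 among them.

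**Figure D1:**
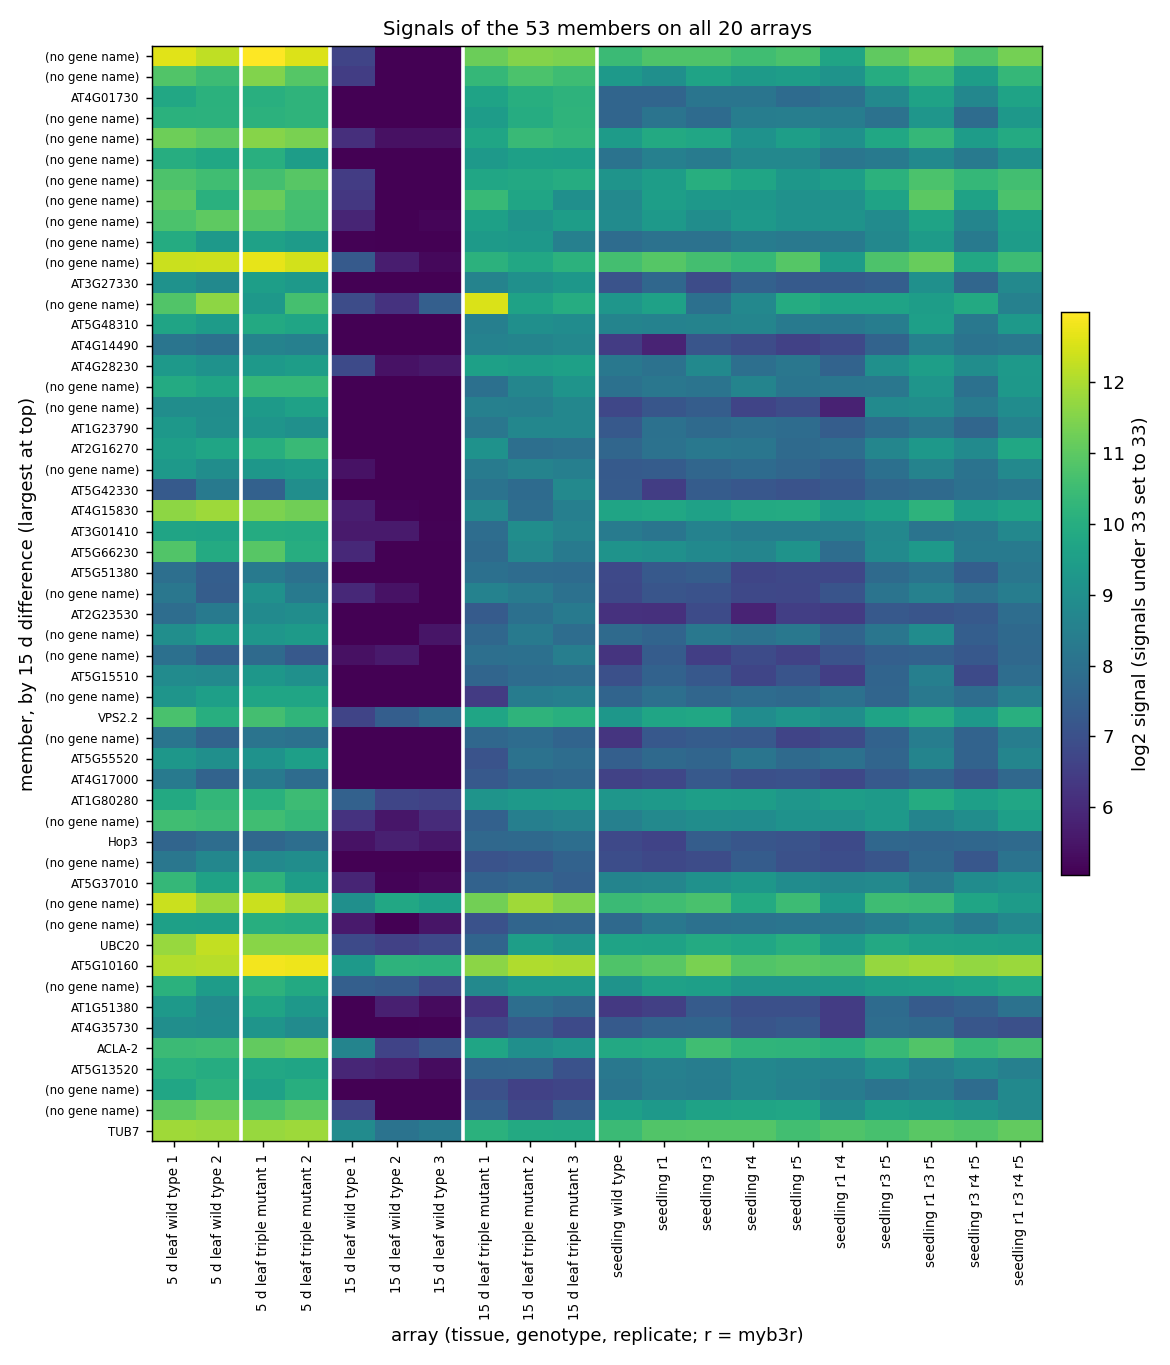
Signals of the 53 members on all 20 arrays, with members in rows ordered by the 15 d difference and arrays in columns grouped by white lines; colour is the log2 signal with signals under 33 set to 33. The 3 mature wild-type columns are the darkest, and the 3 mature mutant columns lie between them and the 5 d columns.

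Among members with a known tie to division, UBC20 (AT1G50490), an E2 ubiquitin-conjugating enzyme of the family that serves the anaphase-promoting complex, had signals of 3476 and 4946 in wild type and 3035 and 3076 in the mutant at 5 d. At 15 d it gave 114, 96.1 and 112 in wild type and 197, 718 and 594 in the mutant. Its mutant arrays were uneven, with replicate 1 less than 2-fold above wild type, and the group mean kept 11.9% of the young wild-type level. TUB7 (AT2G29550), a beta-tubulin, gave 471, 267 and 322 in mature wild type and 1109.5, 935 and 908 in the mature mutant, against 3729 and 3520.4 in young wild type. It was the member nearest the 15 d threshold, with a log2 difference of 1.51. AT5G15510 encodes a protein of the family of TPX2, a factor that binds spindle microtubules. Its signal was 466 and 445 in young wild type, under the floor on all 3 mature wild-type arrays and 197, 231 and 235 in the mature mutant, a log2 difference of 2.74 from the floor.

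Members that take part in membrane traffic and protein modification included the largest named difference. AT4G01730, which encodes a DHHC-type zinc finger protein of the kind that attaches fatty acids to proteins, gave 22.4, 11.1 and 22.2 in mature wild type, all under the floor, and 803, 1046 and 1159.7 in the mature mutant. With wild type set to the floor its log2 difference was 4.91, at least 30.0-fold, and the mutant mean came to 100.1% of the young wild-type level of 902 and 1102. VPS2.2 (AT5G44560), a subunit of the ESCRT-III complex that cuts membranes, was well above the floor in mature wild type, at 102, 172 and 227, and gave 838, 1177 and 1069.8 in the mutant. AT4G35730 encodes a protein related to IST1, which acts on the same machinery in yeast. It gave 1.92, 20.8 and 34.4 in mature wild type and 108, 154 and 113 in the mutant, 25.4% of the young wild-type level. The log2 differences of these ESCRT-related members at 15 d were 2.68 and 1.88. Hop3 (AT4G12400), a co-chaperone that links Hsp70 and Hsp90, gave 43.3, 53.4 and 45.7 in mature wild type and 213, 217 and 244 in the mutant. That mutant mean came to 103% of its young wild-type level of 198 and 237. AT5G13520, annotated as a peptidase of the M1 family, gave 59.8, 53.5 and 39.9 in mature wild type and 201, 205 and 132 in the mutant.

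Of the members with a known place in metabolism, AT5G10160, which encodes a beta-hydroxyacyl-ACP dehydratase of fatty acid synthesis, gave 648, 1172 and 1131 in mature wild type and 3113, 4257 and 4042 in the mutant, against 4359 and 4501 in young wild type. The mutant kept 85.9% of the young level, and the log2 difference at 15 d was 1.99. ACLA-2 (AT1G60810), a subunit of the ATP-citrate lyase that supplies cytosolic acetyl-CoA, gave 396, 101 and 142 in mature wild type and 843, 510.5 and 600.4 in the mutant. Its wild-type replicate 1 came closest to the mutant arrays. AT1G80280, an alpha/beta hydrolase, gave 182, 103 and 95.4 in mature wild type and 570.0, 640.4 and 663 in the mutant.

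Among members with domains that bind DNA, RNA or other proteins, AT4G14490 carries a forkhead-associated domain, which binds phosphorylated proteins. It gave 18.3, 20.9 and 14.7 in mature wild type, all under the floor, and 377, 395 and 435 in the mutant, more than in young wild type at 278 and 254 (151%, the highest share of the 53). AT2G23530, a zinc finger protein, gave 3.94, 3.54 and 16.7 in mature wild type and 161, 252 and 317 in the mutant. For AT1G51380, a DEAD-box RNA helicase, mutant replicate 1 lay at 74.7 and the other mutant arrays at 240.1 and 208, against 31.1, 54.1 and 38.4 in wild type. AT5G51380, a protein with leucine-rich repeats, gave 252, 234 and 227 in the mutant and lay under the floor on all 3 wild-type arrays. AT4G15830, a protein with armadillo-type repeats, had one of the steepest age differences, from 3198 and 3604 in young to 52.7, 34.7 and 32.8 in mature wild type. Its mature mutant arrays, at 443, 238 and 354, kept 10.1% of the young level.

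The named members without a role stated here covered the same range. AT3G27330 gave 16.2, 3.58 and 7.09 in mature wild type and 384, 527 and 607 in the mutant. AT5G48310 gave 29.4, 21.4 and 22.2 in mature wild type and 357, 508 and 476 in the mutant. AT4G28230 gave 114, 43.3 and 47.3 in mature wild type and 749.8, 703 and 763 in the mutant. Of these 3, AT4G28230 was the one above the floor on the wild-type arrays. AT2G16270 was the named member whose mutant replicate 1, at 548, stood highest above the other mutant arrays, at 247 and 265. AT1G23790, AT5G42330, AT3G01410, AT5G66230, AT5G55520, AT4G17000 and AT5G37010 had log2 differences of 2.14 to 3.51 at 15 d and kept 18% to 129.6% of the young wild-type level. AT5G66230 and AT5G37010 were at the low end of that share, at 23.2% and 18%, and AT5G42330 was at the high end.

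The 26 unnamed probe sets had a median log2 difference of 3.41 at 15 d, against 2.74 for the 27 named ones, and held the largest of all. Probe set 253340_s_at gave 102, 28.5 and 15.0 in mature wild type and 2375, 2904 and 2743 in the mature mutant, against 6373 and 4759 in young wild type, a log2 difference of 5.79. The suffix of its name marks a probe set that can read several transcripts, as for 3 of the 53. Just inside the 15 d threshold lay TUB7 at 1.51 and unnamed probe sets at 1.61 and 1.72. Just outside it lay AT4G24610 and AT5G23910, both at 1.49, and an unnamed probe set at 1.42. On the age difference, Hop3 at 2.19, AT5G10160 at 2.22 and 264814_at at 2.31 were just inside, and AT1G49870 at 1.98, AT4G27660 at 1.95 and AT4G38380 at 1.85 just outside. The demand for separate arrays removed AT4G27450, at a 15 d difference of 3.39, and unnamed probe sets at 3.31 and 3.26.

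**Figure D2:**
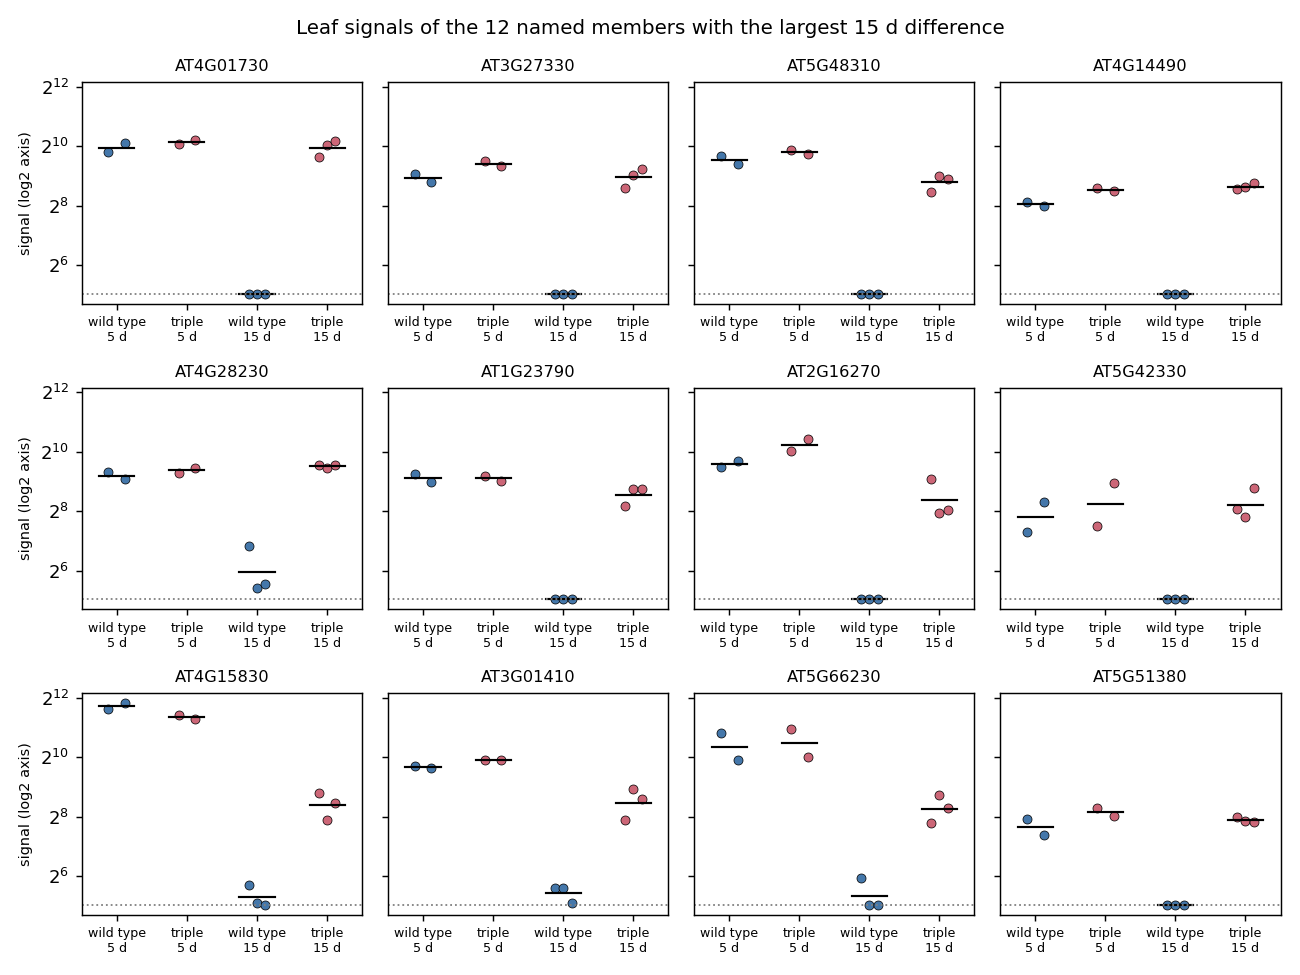
Leaf signals on a log2 axis of the 12 named members with the largest 15 d difference, 1 point per array (5 d: 2 per genotype; 15 d: 3 per genotype), with wild type in blue, the triple mutant in red, bars at the mean of log2 signals and the floor of 33 as a dotted line. In each panel all 3 mature mutant points lie above all 3 mature wild-type points. The 5 d points spread most in AT5G42330, from 158 to 498.

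In young leaves no member passed the test between genotypes. In limma over the 10 leaf arrays, 0 of 53 members were called higher (background 0.109% of 16566 probe sets tested) and 0 lower (background 0.0181%) at an adjusted p under 0.05, with 3 higher and 0 lower at an unadjusted p under 0.05. The rule did not use this contrast, but it used the young wild-type arrays, on which members had to be high, so the contrast is not independent of the rule. The members' median log2 difference was 0.18 (range -1.26 to 0.90) and 39 of 53 lay above 0, beside a median of -0.0041 and 46.3% above 0 over all probe sets tested. That median was 0.29 without wild-type replicate 1 at 5 d and 0.078, with 32 of 53 above 0, without replicate 2. Without mutant replicate 1 at 5 d, 466 of all probe sets tested were called higher in place of 18, and still 0 members. Both mutant arrays lay above both wild-type arrays for 19 members (background 17.8%) and below them for 4 (background 19.1%). AT5G10160 gave 4359 and 4501 in wild type and 7384 and 7026 in the mutant, a log2 difference of 0.70 (SE 0.31, limma adjusted p = 0.944). AT2G23530 gave 236 and 313 in wild type and 464 and 489 in the mutant, a difference of 0.81 (SE 0.34, limma adjusted p = 0.905). ACLA-2 gave 1424 and 1481 in wild type and 2187 and 2400.0 in the mutant, a difference of 0.66 (SE 0.55). In these 3 both mutant arrays were the higher ones, and none passed the test. At the other end, UBC20, AT4G15830 and AT5G13520 had log2 differences of -0.44 (SE 0.53), -0.37 (SE 0.34) and -0.25 (SE 0.31), with both mutant arrays the lower ones.

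Seedlings of 9 d, whose arrays played no part in choosing the members, hold tissues of mixed age. The wild-type seedling lay between the young and the mature wild-type leaf mean for 53 of 53 members. The rule had set those leaves at least 2 log2 units apart, so this count is not independent of the choice. The median member signal was 269 in wild type, 291 in myb3r1, 301 in myb3r3, 342 in myb3r4, 315 in myb3r5 and 287 in myb3r1 myb3r4. It was 434 in myb3r3 myb3r5, 526 in myb3r1 myb3r3 myb3r5, 320.1 in myb3r3 myb3r4 myb3r5 and 480.4 in the quadruple mutant. The seedlings that lacked MYB3R1, MYB3R3 and MYB3R5 together were the highest: the triple mutant was the highest of the 10 arrays for 20 members and the quadruple mutant for 25. Wild type was the lowest for 22. The share of all probe sets with these orders was not counted. The summed photosynthesis markers were 31754 to 41710 across the 10 arrays.

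The effect of losing MYB3R3 and MYB3R5 was tested over 8 seedling arrays, as the mean of 4 matched differences, each between genotypes that differ by both genes (in wild type, myb3r1, myb3r4 and myb3r1 myb3r4). In limma, 2 of 53 members were called higher (background 0.056% of 19636 probe sets tested) and 0 lower (background 0%), with 29 higher and 0 lower at an unadjusted p under 0.05. Without an array in turn, or with a term for the joint loss of MYB3R1 and MYB3R4 in the fit, 0 members were called. Those fits called 0 or 1 of all 19636 probe sets, where the main fit called 11, so their counts say little about the members. The median log2 change over members was 0.52 (range -0.21 to 2.16) and 49 of 53 lay above 0, beside a median of -0.018 and 44.7% over all probe sets tested. All 4 matched differences were above 0 for 29 members (background 7.72%), and for 21 members all 4 arrays without both genes lay above the 4 arrays with them (background 2.77%). The median difference was 0.57 in wild type, 0.79 in myb3r1, 0.95 in myb3r1 myb3r4 and 0.13 in myb3r4. Over members, the myb3r4 array differed from the wild-type seedling by a median of 0.30, and the myb3r1 array by 0.28. The myb3r3 myb3r4 myb3r5 array differed from the myb3r3 myb3r5 array by a median of -0.15. The cause of the smaller value in the myb3r4 background was not tested.

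**Figure D3:**
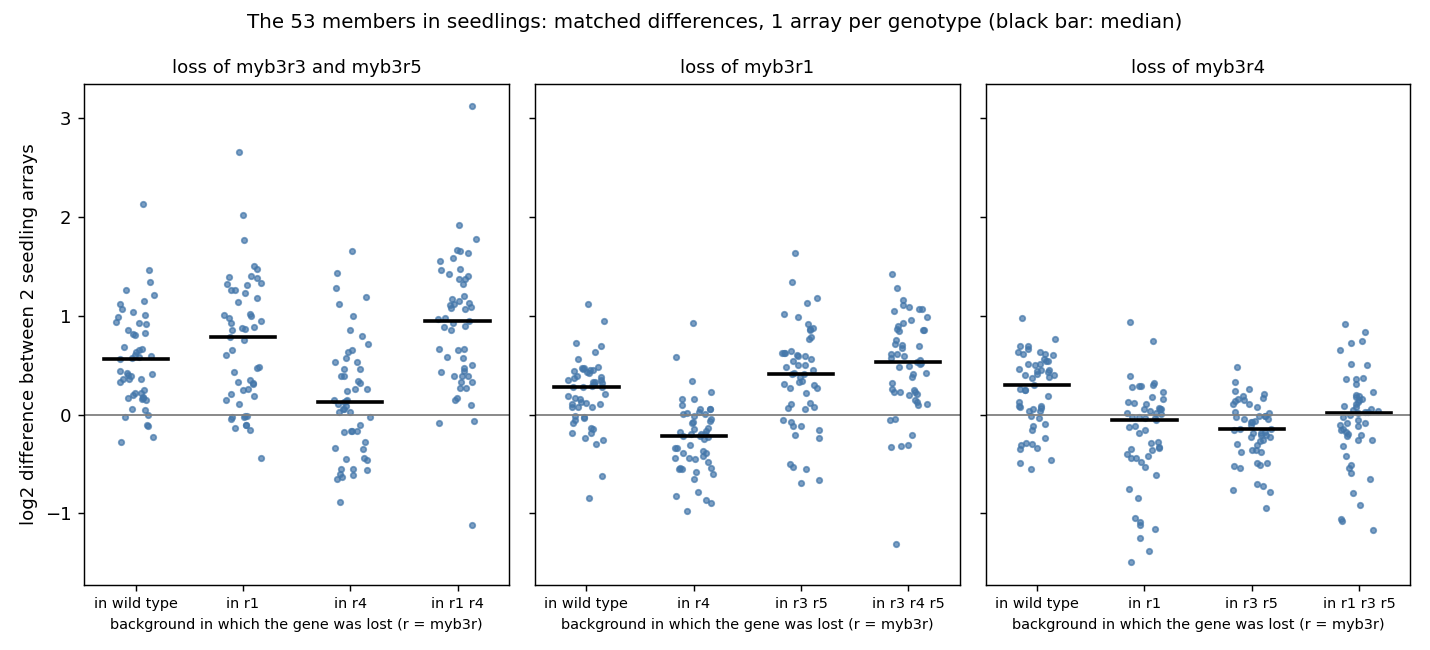
Log2 differences of the 53 members between matched seedling arrays, 1 array per genotype, for the loss of myb3r3 and myb3r5, of myb3r1 and of myb3r4 in 4 backgrounds each; points are members and black bars medians. For the loss of myb3r3 and myb3r5 the medians are 0.57, 0.79, 0.13 and 0.95, and for the loss of myb3r1 they are 0.28 and -0.22 with MYB3R3 and MYB3R5 present, and 0.42 and 0.53 without them.

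Both called members gained about the same in every background. The test favours such members, because its spread is that between backgrounds. AT5G10160, the fatty acid synthesis gene, gave 1786, 2002, 1829 and 1836 in wild type, myb3r1, myb3r4 and myb3r1 myb3r4, and 3411, 3694, 3302 and 3551 in the matching genotypes without MYB3R3 and MYB3R5. It rose by 0.90 on the log2 scale (SE 0.045, limma adjusted p = 0.0132), with matched differences of 0.93, 0.88, 0.85 and 0.95. On the single-mutant arrays it gave 2666 in myb3r3 and 1957 in myb3r5. The 4 arrays without both genes were all above these. The unnamed probe set 264814_at gave 109, 139.9, 108 and 137 with both genes and 277, 368, 262 and 342 without them, and rose by 1.33 (SE 0.082, limma adjusted p = 0.0159). Leaving out single arrays brought the adjusted p of AT5G10160 to between 0.0652 and 0.183 and that of 264814_at to between 0.110 and 0.234, with log2 changes of 0.88 to 0.93 and 1.32 to 1.35.

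Others stood as high without both genes but with more spread. AT4G14490, the forkhead-associated protein, gave 88.7, 57.7, 118 and 111 with both genes and 192, 363, 268 and 292 without, the largest log2 change among named members at 1.59 (SE 0.28, limma adjusted p = 0.217). AT2G23530 gave 72.9, 70.4, 57.3 and 85.7 with both genes and 152, 141, 155 and 237 without, a change of 1.24 (SE 0.19). Hop3 gave 111, 101, 144 and 114 with both genes and 209.5, 199, 208 and 223 without, a change of 0.85 (SE 0.11). In these 3 genes the groups of 4 arrays did not overlap. AT4G28230 (1.26, SE 0.17), AT2G16270 (1.22, SE 0.20), AT5G51380 (0.98, SE 0.14) and AT5G42330 (0.85, SE 0.19) also had separate groups, and their limma adjusted p lay between 0.179 and 0.247. The RNA helicase AT1G51380, named after its values were seen, gave 81.5, 94.1, 127 and 87.1 with both genes and 225, 159, 183 and 262 without. The unnamed 253340_s_at, with the largest leaf difference, gave 1405, 1789, 1497 and 823 with both genes and 2099.6, 2806, 1793 and 2592 without, so its lowest array was that of myb3r1 myb3r4.

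On loss of MYB3R1 most members had a value above 0, and none passed the test. In limma over the same 8 arrays 0 of 53 members were called higher or lower for the loss of MYB3R1 (background 0% in both directions), with 12 higher and 1 lower at an unadjusted p under 0.05. The median log2 change was 0.22 and 41 of 53 lay above 0, beside -0.0054 and 47.3% over all probe sets tested. Leaving out single arrays gave medians of 0.13 (without myb3r3 myb3r4 myb3r5, 36 above 0) to 0.35 (without myb3r4), and of 0.34 without myb3r1 myb3r4 and 0.15 without myb3r1 myb3r3 myb3r5. All 4 matched differences were above 0 for 9 members (background 5.27%). The median difference was 0.28 in wild type and -0.22 in myb3r4, and 0.42 in myb3r3 myb3r5 and 0.53 in myb3r3 myb3r4 myb3r5. The difference between the MYB3R1 effect without and with MYB3R3 and MYB3R5 had a median of 0.53 over members, above 0 in 47 of 53, beside -0.0081 and 49% over all probe sets tested. It came to 0.27 (39 of 53 above 0) without the myb3r1 myb3r4 array and 0.29 (40 of 53) without the myb3r4 array. By limma 0 members passed the test of this difference (background 0% in both directions), 11 higher and 1 lower at an unadjusted p under 0.05, and the lowest adjusted p of a member was 0.719. Both seedlings that lacked all of MYB3R1, MYB3R3 and MYB3R5 lay above the other 6 of the 8 for 34 members (background 3.98%).

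In AT5G48310 those 2 seedlings stood apart from the other 6. It gave 393, 383, 409 and 301 with MYB3R3 and MYB3R5 present, 337 in myb3r3 myb3r5 and 302 in myb3r3 myb3r4 myb3r5, and 737 and 633 once MYB3R1 was lost too. The difference of the MYB3R1 effect was 1.34 (SE 0.18, limma adjusted p = 0.719), the largest of the 53. AT3G27330 followed the same order, with 135.2, 209, 184 and 159 with both genes, 170.0 and 204 without them, and 526 and 439 without MYB3R1 as well (difference 1.16, SE 0.37). AT5G55520, the possible kinesin-like gene, gave 395 and 405 in the 2 seedlings without MYB3R1, MYB3R3 and MYB3R5, and 174, 218, 282, 255, 199 and 193 in the other 6 of the 8. AT4G01730, the gene with the largest named leaf difference, showed both steps. It gave 199, 197, 283 and 259 with both genes, 441 and 422 without them, and 795 and 801 when MYB3R1 was lost as well. Its log2 change on loss of MYB3R3 and MYB3R5 was 1.34 (SE 0.23, limma adjusted p = 0.217). None of these 4 passed the test of either term.

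**Figure D4:**
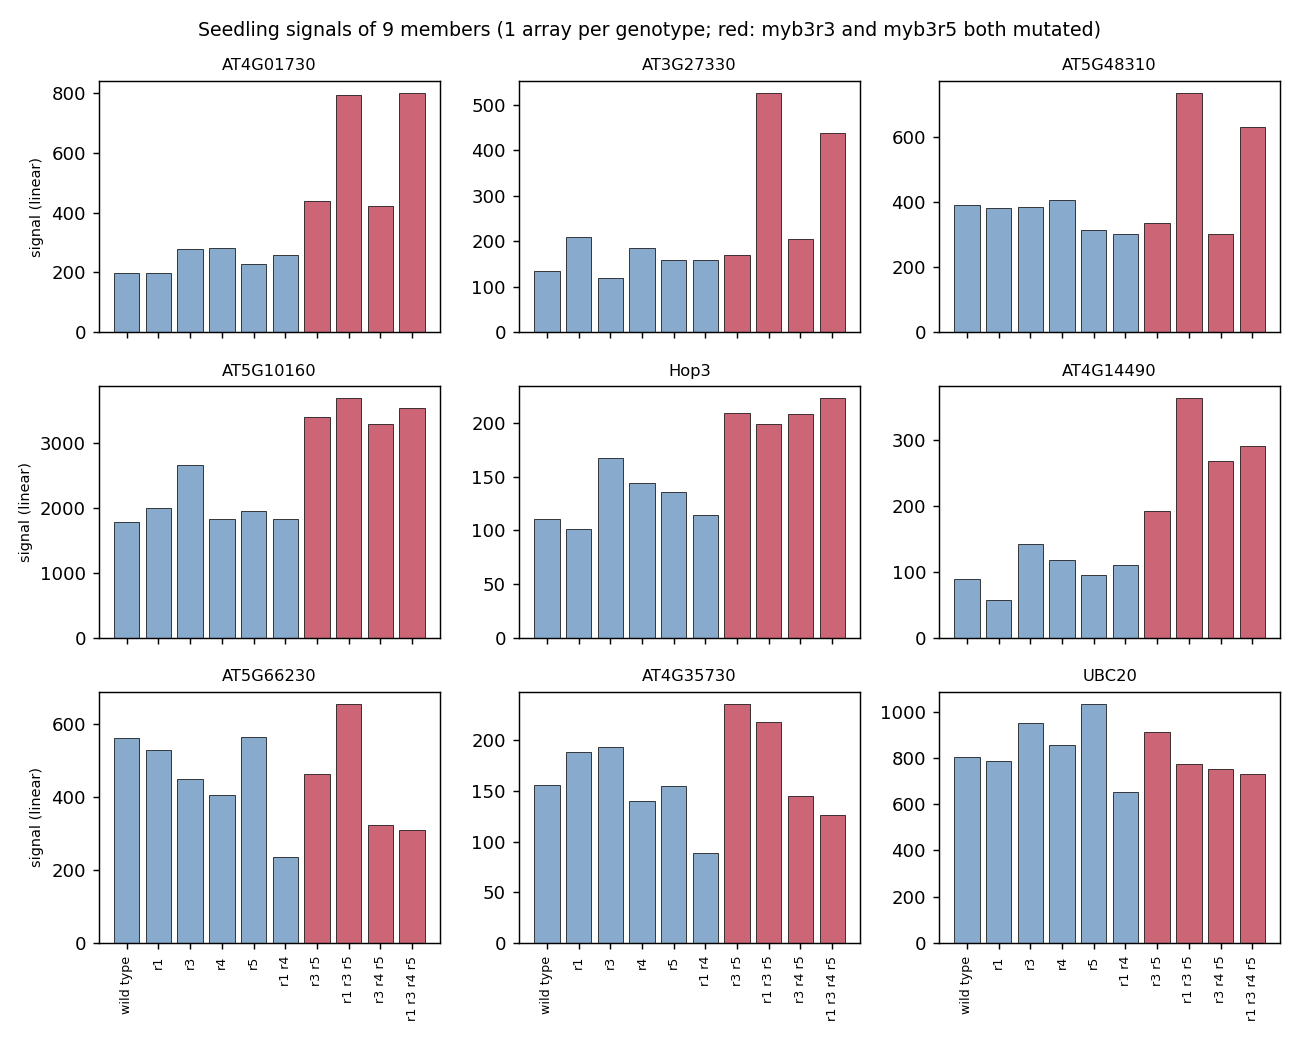
Linear signals of 9 named members in the 10 seedling genotypes, 1 array each, with genotypes that lack both MYB3R3 and MYB3R5 in red and the others in blue; on the axis, r stands for myb3r. AT5G10160 and Hop3 are higher in all 4 red bars, AT5G48310 and AT3G27330 in the 2 red bars that also lack MYB3R1, and AT5G66230 is low where MYB3R4 is lost.

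On loss of MYB3R4 the members lay on both sides of 0. In limma 0 of 53 members were called higher or lower (background 0% in both directions), with 1 higher and 6 lower at an unadjusted p under 0.05, and the median log2 change was 0.077 with 31 of 53 above 0, beside 0.0053 and 51.3% over all probe sets tested. Without the myb3r4 array the median was -0.072 and 19 of 53 lay above 0, and without each other array it was 0.0057 to 0.13. All 4 matched differences were below 0 for 9 members (background 5.96%) and above 0 for 4 (background 7.77%). AT5G66230 gave 560.0, 528, 462 and 654 in wild type, myb3r1, myb3r3 myb3r5 and myb3r1 myb3r3 myb3r5, and 406, 237, 322 and 310.2 in the matching genotypes without MYB3R4. Its log2 change was -0.81 (SE 0.20, limma adjusted p = 0.650), and the groups did not overlap. The IST1-related gene AT4G35730 gave 156, 189, 236 and 218 with MYB3R4 and 139.6, 88.7, 145 and 126 without, a change of -0.69 (SE 0.16). AT5G15510, the TPX2-family gene, gave 127, 187, 193 and 355 with MYB3R4 and 104, 90.8, 114 and 236 without, so its groups overlapped (-0.67, SE 0.22). The ESCRT-III gene VPS2.2 had a change of -0.33 (SE 0.14). The MYB3R1 effect without MYB3R4 minus that with MYB3R4 had a median of -0.19 over members, with 10 of 53 above 0. Over all probe sets tested the median was -0.0034, with 49.5% above 0. By limma 0 members passed the test of this difference (background 0% in both directions), 1 higher and 1 lower at an unadjusted p under 0.05. Its median was 0.057 without the myb3r4 array and 0.055 without the myb3r1 myb3r4 array, and -0.10 without the myb3r1 myb3r3 myb3r5 array, -0.49 without the myb3r3 myb3r4 myb3r5 array and -0.33 without the quadruple mutant's.

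All members had a leaf difference at 15 d by the rule, and some named ones had values near 0 on loss of MYB3R3 and MYB3R5. UBC20 gave 803, 788, 853 and 651 with MYB3R3 and MYB3R5 and 909.6, 774, 753 and 730.4 without, a log2 change of 0.035 (SE 0.078). TUB7 ranged from 1399 in wild type to 2155 in the quadruple mutant, with a change of 0.14 (SE 0.077). AT3G01410 (0.14, SE 0.19), AT4G15830 (0.050, SE 0.19), AT5G37010 (-0.058, SE 0.16) and AT5G66230 (0.022, SE 0.20) also had values near 0. AT5G66230 was nonetheless low in seedlings without MYB3R4, as given above.

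**Figure D5:**
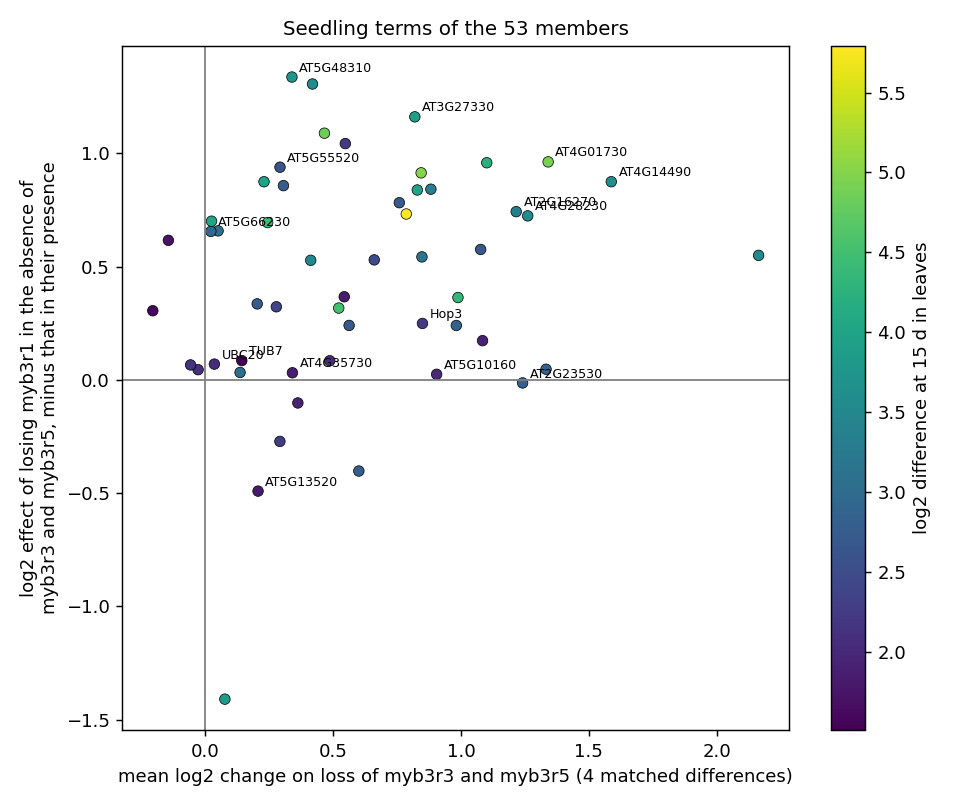
Each of the 53 members by its mean log2 change on loss of myb3r3 and myb3r5 (x axis) and by the difference of the myb3r1 effect without and with both genes (y axis), in log2 units, coloured by the log2 difference at 15 d in leaves, with some named members labelled. Of the 53 points, 49 lie to the right of 0 and 47 above 0. AT5G10160, at 0.90 on the x axis, and AT2G23530, at 1.24, lie near the horizontal line, and AT5G48310 and AT3G27330 lie high.

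Against the wild-type seedling, which all 9 ratios share, single genotypes have 1 array each and no test. At least 1 log2 unit higher were 1 member in myb3r1 (background 0.906%), 1 in myb3r3 (1.49%), 0 in myb3r4 (0.57%), 0 in myb3r5 (0.866%) and 0 in myb3r1 myb3r4 (0.688%). The counts were 10 in myb3r3 myb3r5 (background 1.54%), 10 in myb3r3 myb3r4 myb3r5 (1.21%), 21 in myb3r1 myb3r3 myb3r5 (1.55%) and 25 in the quadruple mutant (1.47%). At least 1 log2 unit lower were 3 members in myb3r1 myb3r4 (background 0.377%), 1 in myb3r3 (0.784%), 1 in the quadruple mutant (0.744%) and 0 in myb3r1 (0.463%), myb3r4 (1.05%), myb3r5 (0.402%), myb3r3 myb3r5 (0.55%), myb3r1 myb3r3 myb3r5 (1.07%) and myb3r3 myb3r4 myb3r5 (0.545%). The median log2 ratio was 0.31 in myb3r3 and 0.20 in myb3r5, against 0.57 in the double mutant of both.

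The same values were set beside other genes lost with leaf age. There were 1621 other probe sets above the floor in seedlings whose wild-type leaf signal was at least 2 log2 units below the young level at 15 d. They had failed the rule's demands on the mutant at 15 d, so their contrast with the members is not independent of the choice. Their median change on loss of MYB3R3 and MYB3R5 was -0.076 with 31.3% above 0, where the members' median was 0.52. Their median log2 ratio in the myb3r1 myb3r3 myb3r5 seedling was -0.025, where the members' was 0.93, and at 5 d their median mutant difference was -0.19, where the members' was 0.18. The 12 genes that met the rule and were left out by name had a median change of 0.83 on loss of MYB3R3 and MYB3R5, above 0 in 12 of 12, and -0.16 at 5 d. Across the 53 members, which share arrays and probe-set scale, the leaf difference at 15 d was set against seedling values. With the difference of the MYB3R1 effect it gave Pearson r = 0.45 and Spearman rho = 0.57. With the ratio of the myb3r1 myb3r3 myb3r5 seedling to wild type it gave r = 0.47 and rho = 0.49. Values were r = 0.41 and rho = 0.39 for loss of MYB3R1, and r = 0.32 and rho = 0.33 for loss of MYB3R3 and MYB3R5. For loss of MYB3R4 they were r = -0.074 and rho = -0.099. The rule cut the leaf difference at 1.5 and the floor limits it in wild type, and whether these values differ from each other was not tested. These correlations run across probe sets, which are not independent replicates, and describe these arrays only.

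Of the division genes on the lists, 4 of 25 G2/M genes, 12 of 27 chromosome condensation and segregation genes and 3 of 18 S phase genes had a named probe set, and the cytokinesis list of 18 genes had 4 probe sets. None of them was called in either direction at 5 d or for any seedling term by limma. On loss of MYB3R3 and MYB3R5 the median log2 change was 0.053 for the G2/M genes, -0.078 for the cytokinesis genes, -0.052 for the segregation genes and -0.025 for the S phase genes, beside -0.018 over all probe sets tested. These medians join genes that moved in opposite directions. AUR1, AUR2, BUBR1 and KINESIN-12B, which met the leaf rule, changed by 0.20, 1.08, 0.88 and 0.86. On the same lists AUR3 changed by -0.46, AT5G05510 by -0.66 and FU by -0.30 and -0.094.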

How the data were processed

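RNA of 10 leaf and 10 seedling samples was measured on 20 Affymetrix arrays. The authors deposited a linear intensity for each probe set on each array. MAS5 (version not given in the sources used here) made these values, per the submitters' processing notes, and their 2% trimmed mean was the same on every array. From the deposited intensity values, signals under 33 were set to 33 and log2 was taken. The members and the gene lists were chosen with earlier results of these data known.

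Probe sets were named from the platform's gene table, updated by locus name through RefSeq's table for TAIR10.1: of 22810 probe sets, 13513 had 1 gene, 503 several, 8730 none and 64 were array controls. That table gives kinesins by locus name only, so 7 were left out by a list of loci. The named genes were the 12 members with the largest 15 d difference, every member with a symbol, the 4 at each end of each seedling term, the 3 at each end at 5 d and those next to a threshold, which came to 24 of 27. The 3 others (AT4G17000, AT1G80280 and AT1G51380) were named after their values were seen.

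Tests were two-sided moderated tests (limma 3.58.1, R 4.3.3, eBayes with a trend), with Benjamini-Hochberg adjustment over all probe sets tested and a call at an adjusted p under 0.05. The leaf fit took 10 arrays and the 16566 probe sets that exceeded the floor throughout some leaf group, leaving 6 residual degrees of freedom. The seedling fit took the 19636 probe sets that exceeded the floor on any seedling array, over the 8 arrays that combine loss of MYB3R1, of MYB3R4 and of MYB3R3 with MYB3R5, leaving 4 residual degrees of freedom, or 3 with a term for the joint effect. No genotype has a replicate there, so the spread is that between backgrounds. The number of arrays limits the precision. The fits were tested on simulated data, and no 2 arrays held identical values (highest correlation 0.991). Same-numbered leaf replicates deviated together, with correlations of 0.72, 0.61 and 0.54 at 15 d and 0.56 at 5 d. On this evidence from the data alone, the numbers were taken to pair the arrays. The pairing was used for the same-numbered differences and for a replicate block tried as an alternative. The main leaf fit had no replicate block, so its standard errors and p-values at 5 d do not use the pairing. Plots used matplotlib 3.10.9 (Python 3.11.15). The alternatives tried were other floors, quantile normalization, no filter, no variance trend, other model terms and each array left out. Promoter sequences were not used here.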

Additional observations from a re-analysis of the deposited data

How the results depend on the processing

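The rule gave 73 members with a floor of 16, 39 with a floor of 66, 58 after quantile normalization, 44 with a 15 d threshold of 2 and 83 with a threshold of 1. Leaving out each leaf array gave 51 to 83, and the 83 came from leaving out mutant replicate 1 at 15 d. The median 15 d difference over members was 3.45 with a floor of 16 and 2.23 with a floor of 66, alternatives chosen after seeing the data. For the loss of MYB3R3 and MYB3R5, the count of 2 members called higher became 0 with a term for MYB3R1 by MYB3R4, and 0 to 0 without each seedling array, where 3 residual degrees of freedom remain. Over all probe sets tested, calls higher in these fits went from 11 to 0, or to 1 without the myb3r3 myb3r4 myb3r5 array. Over all 10 seedling arrays with a term per allele, the adjusted p of 264814_at was 0.051. With the replicate block at 5 d, 0 members were called higher and 0 lower, as without it, while calls over all probe sets went from 18 to 44 higher and from 3 to 8 lower. The block changed no call of a member. Among single seedling arrays against wild type, a ratio of 1.5-fold in place of 1 log2 unit gave 5 higher and 2 lower members in myb3r1, 10 higher in myb3r3, 10 higher in myb3r4, 5 higher in myb3r5, 3 higher and 8 lower in myb3r1 myb3r4, 24 higher in myb3r3 myb3r5, 37 higher in myb3r1 myb3r3 myb3r5, 20 higher and 3 lower in myb3r3 myb3r4 myb3r5, and 39 higher and 4 lower in the quadruple mutant. After quantile normalization, 2 higher and 1 lower were found in myb3r1, 2 higher in myb3r3 and 5 lower in myb3r1 myb3r4. The causes of these shifts were not tested. No share of all probe sets is given for the 1.5-fold and quantile-normalized counts, so they cannot be set against a background. The median over members turned sign without the myb3r4 array for the loss of MYB3R4 (from 0.077 to -0.072) and for the MYB3R1 by MYB3R4 term (from -0.19 to 0.057). With 1 array per seedling genotype and 2 or 3 arrays per leaf group, small differences between members cannot be told from the spread between arrays.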
